A study of Mus musculus with 294 samples.

Results

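Cycling cells made up 71 of 294 neural crest cells of the embryonic mouse heart, or 24.1% (exact Clopper-Pearson 95% interval 19.4 to 29.5%, counting error only). A cell counted as cycling when at least 3 of the 5 proliferation genes Mki67, Top2a, Cenpf, Tpx2 and Ccna2 reached 50 CPM, the reads of a gene per 1000000 reads of that cell. The cells were thus chosen by measured values of these 5 genes. The comparison cells were the 169 cells in which all 5 genes stayed below 10 CPM, and the 54 cells that met neither rule entered no comparison.

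All 294 cells came from Wnt1-Cre; R26-EYFP mice and belong to 1 group. In these animals the Wnt1-Cre driver switches on the yellow fluorescent reporter EYFP in the neural crest lineage, so the cells are those marked by this driver and kept by the sort for EYFP. They were taken from the outflow tract at 4 embryonic ages, E11.5 and E12.5 as well as E14.5 and E17.5, and captured singly on Fluidigm C1 chips for cells of medium size, so a share of cells is a share of captured cells. The labels name no age, animal or chip for any cell and no untreated or mutant control. The group is therefore 1 sample, and no p-value or standard error was computed.

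Cells were compared within 7 name series, the cells whose names share a first digit. The labels do not say what that digit means, so the series are layers of the comparison and not groups of the study. Each series held 34 to 58 cells, of which 6 to 19 were cycling and 15 to 29 were comparison cells. Total reads per cell lay between 34046 and 3033857 with a median of 1204543. No pair of cells had identical counts.

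Neural crest cells migrate into the outflow tract of the heart, where they help to divide the aorta from the pulmonary artery and give rise to smooth muscle of the great arteries and to mesenchyme of the cushions. A dividing cell passes from G1, gated by D cyclins with Cdk4 and Cdk6 and held back by the CDK inhibitors, through DNA synthesis in S phase, driven by E2F targets and E cyclins. It then enters G2 and mitosis, where cyclin B with Cdk1, the Aurora and Polo kinases and the kinesins build the spindle and separate the chromosomes.

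Many genes of G2 and mitosis are read from promoters that carry CCAAT boxes and a cell cycle homology region. The 4 such promoters printed here held the most motif matches among called genes of the mitosis and DNA replication lists with a promoter entry. Promoters of a single chromosome were left out of this ranking. The sequences are the bases before the start in RefSeq on GRCm38.p6, 5′ to 3′ on the strand of the gene. Capitals mark the cell cycle homology region (TTTGAA or TTCGAA), the CCAAT box and the E2F motif (TTTCGCGC or TTTGGCGC), each on either strand. In Ube2c one CCAAT match and its reverse complement overlap. Ube2c codes for the ubiquitin-conjugating enzyme of the anaphase-promoting complex, Cdk1 for the mitotic kinase, Hmgb2 for a chromatin protein and Cks1b for a CDK-binding subunit. Their regions are chr2:164769699-164769928 on the plus strand, chr10:69352913-69353122 on the minus strand, chr8:57511593-57511842 on the plus strand and chr3:89418292-89418511 on the minus strand.
Ube2c: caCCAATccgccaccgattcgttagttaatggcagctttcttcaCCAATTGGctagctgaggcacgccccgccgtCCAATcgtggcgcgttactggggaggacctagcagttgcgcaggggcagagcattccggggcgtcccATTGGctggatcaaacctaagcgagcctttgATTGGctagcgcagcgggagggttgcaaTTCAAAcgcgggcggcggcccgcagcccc
Cdk1: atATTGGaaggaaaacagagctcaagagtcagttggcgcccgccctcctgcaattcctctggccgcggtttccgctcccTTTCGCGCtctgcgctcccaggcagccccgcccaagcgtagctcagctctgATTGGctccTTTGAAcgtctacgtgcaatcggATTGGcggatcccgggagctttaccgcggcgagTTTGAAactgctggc
Hmgb2: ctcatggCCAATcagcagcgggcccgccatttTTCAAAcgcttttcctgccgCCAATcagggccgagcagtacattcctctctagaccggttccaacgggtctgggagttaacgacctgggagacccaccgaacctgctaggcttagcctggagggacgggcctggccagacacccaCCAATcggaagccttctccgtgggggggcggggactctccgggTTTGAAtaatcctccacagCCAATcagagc
Cks1b: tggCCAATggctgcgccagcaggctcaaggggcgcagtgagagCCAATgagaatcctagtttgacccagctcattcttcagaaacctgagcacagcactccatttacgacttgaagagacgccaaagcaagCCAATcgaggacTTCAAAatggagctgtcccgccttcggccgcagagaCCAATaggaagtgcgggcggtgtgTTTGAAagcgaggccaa

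Of the 62 tested genes of the G2 and mitosis list, 48 matched the promoter table, with 51 promoters. A cell cycle homology region was found in the 250 bases before the start in 43.1% of these promoters, a CCAAT box in 74.5%, both in 39.2% and an E2F motif in 5.88%. Among the 32 promoters of the 27 matched DNA replication genes, of 39 tested, the shares were 12.5% for the homology region, 68.8% for CCAAT and 18.8% for E2F. In the 14 promoters of the replication genes called higher in the cycling cells, the shares were 7.14%, 64.3% and 0%. The 49 promoters of mitosis genes called higher had 44.9%, 77.6% and 6.12%. Among the 8775 promoters of all tested genes with an entry the shares were 11.9%, 35.2% and 1.39%. Over all 32851 promoters of the table they were 17.1%, 33.8% and 0.654%. These are matches of letters, with no measurement of binding.

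The share of cycling cells was highest in series 1, at 32.8% (19 of 58 cells, 95% interval 21.0 to 46.3%), and lowest in series 3, at 15.8% (6 of 38 cells, 6.02 to 31.3%). The intervals of all 7 series overlapped, and no test between series was made. Of the 19 cycling cells of series 1, 6 had fewer reads than the depth used for thinning below. None of the 23 comparison cells of that series did. The part of read depth in the share of series 1 was not tested.

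**Figure D1:**
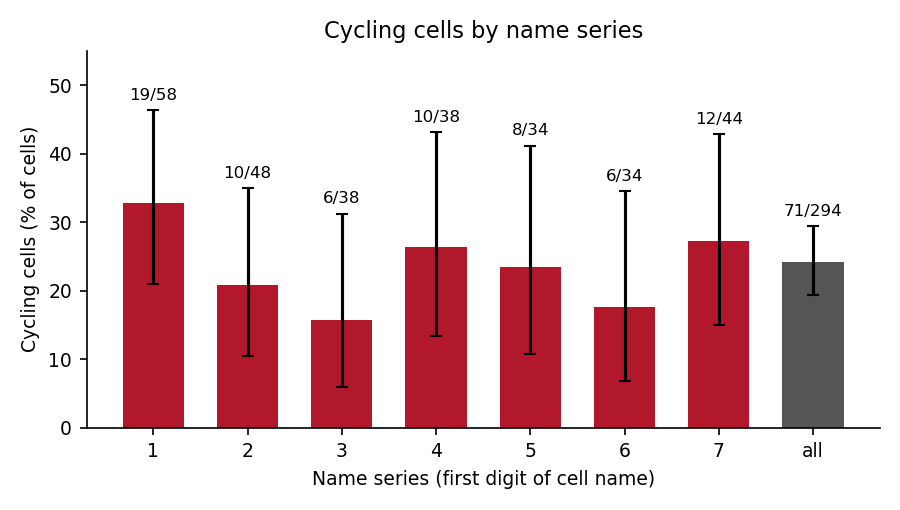
Cycling cells as a percentage of the cells of each name series and of all cells, with exact 95% binomial intervals and the counts above the bars. The bars lie between 15.8% in series 3 and 32.8% in series 1, and the intervals of the 7 series overlap.

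The 5 defining genes chose the cells, so their values are a description. In 40 of the 71 cycling cells all 5 reached 50 CPM, in 21 cells 4 did, and in 10 cells 3 did. The gene missing most often was Ccna2, the cyclin of S phase and G2, which was below 50 CPM in 13 cells, and the one missing least often was Mki67, a protein of the mitotic chromosome surface, in 3 cells. For Mki67 the mean over the cycling cells of a series ran from 269.5 to 1275 CPM with a median of 568.2, and for Top2a, the DNA topoisomerase of dividing cells, it ran from 308.9 to 1246 CPM with a median of 801.7. Cenpf, a kinetochore protein, ran from 325.9 to 1129.9 CPM with a median of 572.9, and Tpx2, which activates Aurora A on the spindle, ran from 218.7 to 490.95 CPM with a median of 376.3. Ccna2 ran from 235.1 to 564.5 CPM with a median of 313.5. In 94 of the 169 comparison cells all 5 genes had no read. The cycling cells nearest the threshold had third-highest values of 52.4, 66.9 and 86.1 CPM among the 5 genes. They all came from series 1, with 152731, 1346042 and 232177 total reads in that order. The cells just outside had 49.8, 44.8 and 40.4 CPM.

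Cycling cells had more genes with a read than comparison cells in 7 of 7 series, with medians over all cells of 5271 and 3931 genes. The order also held in 7 of 7 series after every cell was thinned to 286313 reads, with medians of 4729 and 3579.5 genes. Left out were 10 cycling and 11 comparison cells with fewer reads. In series 1 these were 6 of 19 cycling cells and 0 of 23 comparison cells. Median total reads were higher in the cycling cells in 5 of the 7 series. Series 1 stood apart, with a median of 7858 genes per cycling cell against 4215 to 5898 in the other 6 series. The part of the number of genes detected in the differences that follow was not tested, apart from the alternatives named with them. Embryonic age is given for no cell, so its part in these differences was not tested.

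For each gene, the mean CPM of the cycling and of the comparison cells was taken in each series, and the log2 ratio of the 2 means, each raised by 10 CPM, is the log2 difference. The median over the 7 series is given, and series means are given by their lowest, highest and median value. A gene is called higher or lower when that median is at least 2-fold and all 7 series have the same sign. Of the 8853 genes that at least 10% of the cells held at 10 CPM, 214 were called higher (2.42%) and 107 lower (1.21%). The 214 include the defining genes, which chose the cells. The median gene stood at -0.15. Cell cycle genes could pass the filter through the cycling cells themselves, so their counts and medians are a description and no support for the rule.

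The G2 and mitosis genes were higher in the cycling cells as a block. Of 68 genes of this list in the table, which leaves out the 5 defining genes, 62 were tested, 59 were called higher and none lower, and their median log2 difference was 3.85. In 52 of the 62 every series was at least 2-fold higher (1.28% of all tested genes were), and in 55 the series means of the cycling and comparison cells did not overlap (1.72% of all tested genes). The summed CPM of the list ran from 11789 to 26062 CPM with a median of 17422 in the cycling cells and from 678.6 to 1287 CPM with a median of 854.4 in the comparison cells over the 7 series.

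Cyclin B1, the partner of Cdk1 at entry into mitosis, had the largest difference of the list. Series means of Ccnb1 ran from 243.9 to 1099 CPM with a median of 602.8 in the cycling cells and from 0 to 4.67 CPM with a median of 0.0586 in the comparison cells. The ranges were far apart, and the log2 difference was 5.90, a value set in part by the 10 CPM added to a level near 0. Ccnb1 reached 50 CPM in 46 of 71 cycling cells (64.8%, 95% interval 52.5 to 75.8%) and in 0 of 169 comparison cells (interval up to 2.16%). Ccnb2, the second B cyclin, ran from 236.05 to 409.5 CPM with a median of 357.3 in the cycling cells and from 0 to 24.6 CPM with a median of 0.101 in the comparison cells, also without overlap. Its log2 difference was 4.95.

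Cdk1 itself ran from 348.9 to 782.5 CPM with a median of 463.1 in the cycling cells and from 4.04 to 34.7 CPM with a median of 15.5 in the comparison cells, with a log2 difference of 3.99. It was above 50 CPM in 61 of 71 cycling and 13 of 169 comparison cells, and 11 of those comparison cells were at 100 CPM or more. Birc5, the survivin subunit of the chromosomal passenger complex, ran from 382.2 to 678.7 CPM with a median of 604.5 against 0 to 15.2 CPM with a median of 3.98, again without overlap. Prc1, which bundles microtubules at the spindle midzone, ran from 288.1 to 975.6 CPM with a median of 517.04 against 1.69 to 14.4 CPM with a median of 2.70. Their log2 differences were 4.85 and 5.19.

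Ube2c ran from 323.1 to 707.1 CPM with a median of 491.6 in the cycling cells and from 1.83 to 34.9 CPM with a median of 4.32 in the comparison cells, with a log2 difference of 4.73. The checkpoint kinase gene Bub1 ran from 87.2 to 734.4 CPM with a median of 196.8 against 0 to 0.865 CPM with a median of 0, and Spc25, of the Ndc80 complex that ties kinetochores to microtubules, ran from 221.4 to 820.6 CPM with a median of 330.9 against 0 to 17.0 CPM with a median of 1.20, both without overlap. The kinetochore gene Ndc80 itself was higher in 6 of 7 series with a log2 difference of 3.79 and was not called. The chromatin protein gene Hmgb2 and Cks1b, whose promoters are printed, differed less, and the comparison cells also held reads of both. Hmgb2 ran from 426.3 to 975.2 CPM with a median of 769.4 against 33.5 to 128.05 CPM with a median of 67.5 and Cks1b ran from 451.9 to 904.4 CPM with a median of 653.6 against 93.7 to 202.3 CPM with a median of 165.3. Their log2 differences were 2.74 and 1.95, and neither pair of ranges overlapped.

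The rest of the 12 largest differences of the list that were at least 2-fold in every series were log2 differences of 4.79 for the mitotic kinase gene Pbk, 4.69 for the kinesin gene Kif20b, 4.61 for the kinetochore motor gene Cenpe and 4.599 for Anln, the anillin of the contractile ring. Hmmr, a spindle protein gene, had 4.54 and Ckap2l, a microtubule-associated protein gene, 4.53. None of these 6 genes had overlapping ranges.

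Some mitotic genes were found in fewer of the cycling cells than Cdk1. The Polo kinase gene Plk1 ran from 17.7 to 425.9 CPM with a median of 161.6 in the cycling cells and from 0 to 27.6 CPM with a median of 0.0269 in the comparison cells, so its ranges overlapped in spite of a log2 difference of 4.10. Aurka, the centrosomal Aurora kinase, ran from 91.1 to 241.01 CPM with a median of 134.01 against 0 to 12.6 CPM with a median of 0.0197 without overlap. At 50 CPM, Plk1 was found in 35 of 71 cycling cells, Cdc20, the activator of the anaphase-promoting complex, in 36 and Aurka in 29. Lmnb1, the B-type lamin of the nuclear envelope, was the list's smallest difference at 0.67 and was not called.

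DNA replication genes were higher in part. Of 43 genes of the list in the table, 39 were tested, 20 were called higher and none lower, and the median log2 difference was 1.68. Every series was at least 2-fold higher in 7 of the 39. The summed CPM of the list ran from 4268 to 8288 CPM with a median of 5381 in the cycling cells and from 999.6 to 2153 CPM with a median of 1528 in the comparison cells.

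The largest difference was that of 2810417H13Rik, the older symbol of the PCNA-associated factor gene Pclaf. It ran from 354.7 to 1002 CPM with a median of 604.9 in the cycling cells and from 0 to 35.3 CPM with a median of 5.61 in the comparison cells, with no overlap and a log2 difference of 5.57. The thymidine kinase gene Tk1 ran from 64.2 to 331.6 CPM with a median of 133.4 against 0 to 9.92 CPM with a median of 1.47, and Rrm2, the small subunit of ribonucleotide reductase, ran from 152.02 to 705.2 CPM with a median of 221.6 against 2.91 to 67.0 CPM with a median of 25.8. Their log2 differences were 3.80 and 3.09. These 3 genes were at least 2-fold higher in every series, as were Atad2, a chromatin ATPase gene, at 2.49 and Rrm1, the large reductase subunit, at 2.34. So were Rad51ap1, a recombination factor, at 2.08 and Dscc1, of the cohesion clamp loader, at 1.68. Tyms, the thymidylate synthase gene, was called with a log2 difference of 2.90 but was not at least 2-fold higher in every series.

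The replication clamp gene Pcna was abundant in both kinds of cell. It ran from 156.99 to 487.7 CPM with a median of 307.96 in the cycling cells and from 71.7 to 128.8 CPM with a median of 92.6 in the comparison cells, so the ranges did not overlap, and the log2 difference was 1.39. Pcna reached 50 CPM in 54 of 71 cycling cells and in 64 of 169 comparison cells. None of the 6 helicase genes Mcm2 to Mcm7, whose products load before S phase, was called by this rule. By the share of cells at 100 CPM, Mcm3 was found in 35.2% of cycling and 14.002% of comparison cells and Mcm6 in 49.3% and 25.6%, each higher in 6 of 7 series. These comparison shares were weighted to the series of the cycling cells. Mcm5 reached 50 CPM in 26 of 71 cycling and 18 of 169 comparison cells. Mcm2 ran from 9.44 to 78.0 CPM with a median of 45.9 against 20.6 to 53.1 CPM with a median of 33.3, with a log2 difference of 0.43, and Mcm5 and Mcm6 had log2 differences of 0.92 and 0.60, with overlapping ranges. Cdc45, which activates the helicase, was higher in 6 of 7 series with a log2 difference of 3.18 and so was not called.

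Chromatin, tubulin and nucleotide genes of growing cells were higher at high levels, with 12 of 18 tested genes called higher, none lower and a median of 1.11. The microtubule regulator gene Stmn1 ran from 1411 to 2646 CPM with a median of 2138 in the cycling cells and from 241.5 to 842.2 CPM with a median of 525.3 in the comparison cells, with a log2 difference of 1.78. The histone variant gene H2afz ran from 2363 to 7487 CPM with a median of 3709 against 312.6 to 2022 CPM with a median of 1118, and the DNA damage variant gene H2afx ran from 137.5 to 379.4 CPM with a median of 235.5 against 5.97 to 55.8 CPM with a median of 29.5. The ranges of all 3 genes were separate, although the comparison cells had reads for each. The log2 differences of H2afz and H2afx were 1.72 and 2.51, and that of the tubulin gene Tuba1b was 1.56.

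Replication-dependent histone genes lie in clusters of near-identical copies and mostly lack poly(A) tails, so single copies are uncertain here. A list of the 58 histone cluster genes in the table was made after their values were seen. Of 20 tested, 11 were called higher and none lower, and the median summed CPM per cell was 1049.7 in the cycling and 124.1 in the comparison cells.

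**Figure D2:**
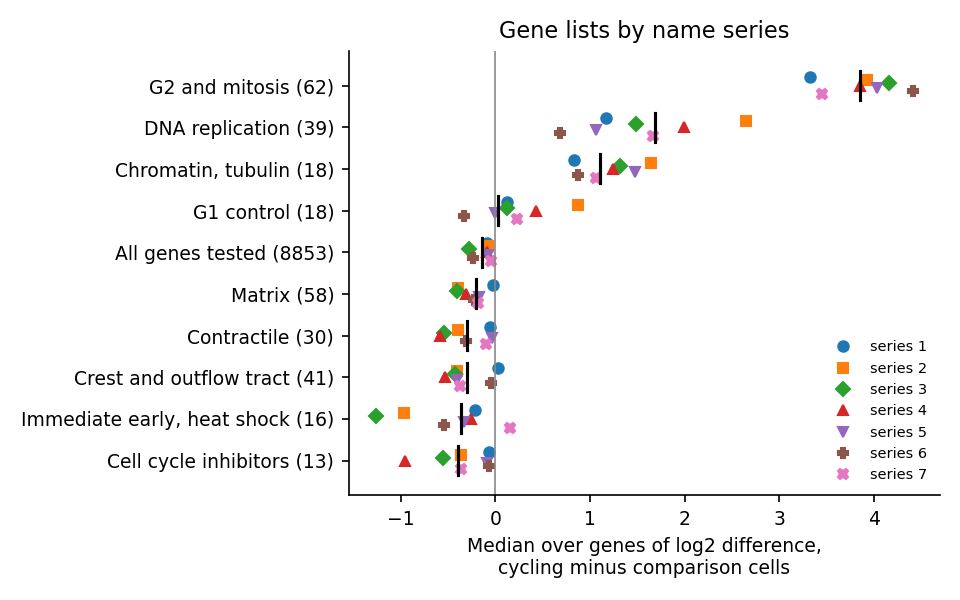
Median log2 difference between cycling and comparison cells for each gene list, by name series (symbols), with the median over series as a black bar and the number of tested genes in brackets. The G2 and mitosis bar lies at 3.85 and the replication bar at 1.68, while the contractile, matrix and crest and outflow tract bars lie between -0.30 and -0.21 beside -0.15 for all genes.

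G1 regulators did not share this difference as a block. Of 22 listed D cyclins, CDKs, E2F and pocket protein genes, 18 were tested, with a median of 0.03, 1 called higher and 1 called lower. Their log2 differences ran from -1.22 to 2.19, and the gene at 2.19 was not called. At 100 CPM, Tfdp1 of this list was found in 43.7% of cycling cells and 15.9% of comparison cells weighted to the same series. That share was higher in 6 of 7 series. Ccnd1 ran from 111.2 to 207.9 CPM with a median of 148.7 in the cycling cells and from 43.9 to 314.1 CPM with a median of 158.7 in the comparison cells, so the ranges covered one another, and its log2 difference was 0.06. Ccnd2 ran from 1.33 to 388.7 CPM with a median of 166.1 against 191.9 to 456.7 CPM with a median of 327.5, was lower in 6 of 7 series with a log2 difference of -1.07 and was not called. Ccnd3 had a log2 difference of -0.26.

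The gene called higher was Cdk2, the kinase of E and A cyclins, which ran from 34.7 to 165.4 CPM with a median of 60.8 in the cycling cells and from 18.6 to 49.3 CPM with a median of 31.0 in the comparison cells, a log2 difference of 1.14. It kept its call in 11 of 21 alternative settings. Cdk4, the D cyclin kinase, ran from 521.9 to 971.9 CPM with a median of 823.9 against 314.3 to 802.7 CPM with a median of 511.9, a log2 difference of 0.56 and not called. The gene called lower was Myc, the growth regulator, which ran from 0 to 50.6 CPM with a median of 5.84 in the cycling cells and from 19.9 to 107.9 CPM with a median of 36.5 in the comparison cells. Myc was lower in 7 of 7 series with a log2 difference of -1.22, with overlapping ranges, and lost its call in 5 of 21 alternatives.

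Among 17 CDK inhibitor and cell cycle exit genes with a row, 13 were tested, with a median of -0.39. Cdkn1c, the p57 inhibitor, was lower in 7 of 7 series and ran from 17.7 to 301.4 CPM with a median of 53.3 in the cycling cells and from 34.1 to 533.1 CPM with a median of 187.96 in the comparison cells. The ranges overlapped and its log2 difference of -0.80 fell short of 2-fold. Cells at 100 CPM of Cdkn1c were 25.4% of the cycling cells (95% interval 15.8 to 37.1%) and 36.4% of the comparison cells weighted to the same series. Cdkn1a and Cdkn1b, the p21 and p27 inhibitors, had log2 differences of -0.76 and 0.17.

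Cdkn2d, the p19 member of the INK4 inhibitors of Cdk4 and Cdk6, went the other way and was the only gene of that list called higher. It ran from 32.3 to 199.6 CPM with a median of 146.9 in the cycling cells and from 0.114 to 56.2 CPM with a median of 24.0 in the comparison cells, a log2 difference of 1.77. The ranges overlapped at their edges, and the call held in 21 of 21 alternatives. At 100 CPM it was found in 35.2% of the cycling cells against 12.3% of the comparison cells weighted to the same series.

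**Figure D3:**
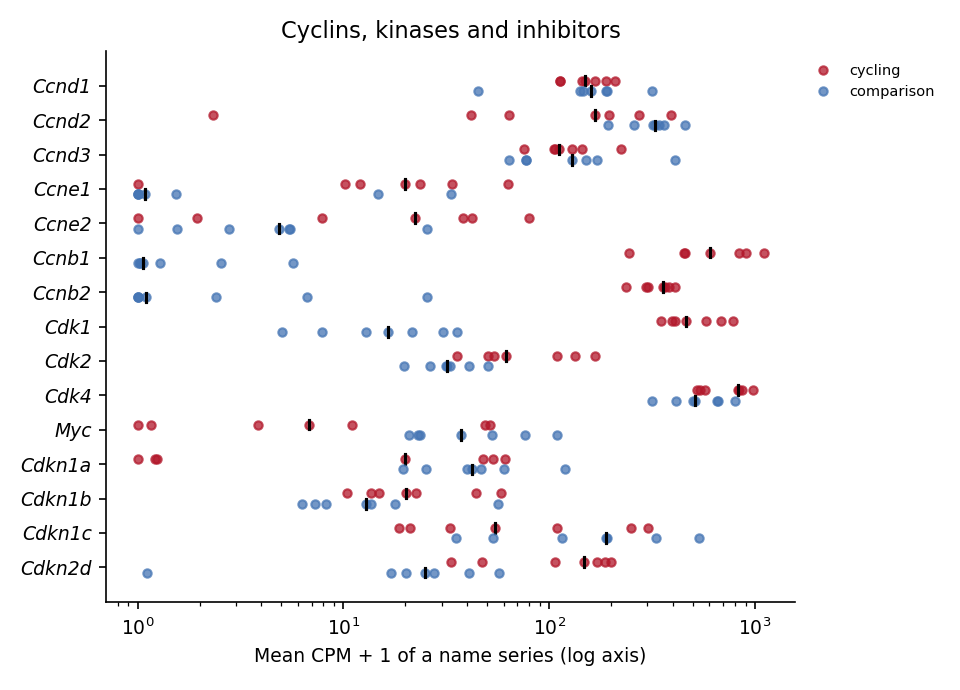
Mean CPM + 1 (log axis) of cyclin, kinase and inhibitor genes in each of 7 name series, for cycling cells (red) and comparison cells (blue), with black bars at the median series. Ccnb1, Ccnb2 and Cdk1 are apart in the 2 kinds of cell. The D cyclins overlap, with Ccnd2 lower in the cycling cells in most series. Cdkn2d lies higher and Cdkn1c lower in the cycling cells with overlap.

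The cycling cells differed among themselves in which cell cycle genes they held. The number of mitosis list genes at 50 CPM ran from 11 to 63 with a median of 38 per cycling cell, and from 0 to 11 with a median of 3 per comparison cell. For replication genes it ran from 2 to 37 with a median of 16 per cycling cell and from 0 to 28 with a median of 4 per comparison cell. At least 10 replication genes reached 50 CPM in 55 of 71 cycling cells, 16 of 169 comparison cells and 20 of the 54 cells that met neither rule. Cells with many replication genes were thus also left outside the cycling cells by a rule that leans on genes of G2 and mitosis.

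Ccnb1 at 50 CPM without either E cyclin at 50 CPM was seen in 38 cycling cells. An E cyclin without Ccnb1 was seen in 12, both in 8 and neither in 13. Plk1, Cdc20 and Ccnb1 were all at 50 CPM in 23 cycling cells and in 0 comparison cells.

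Over the 71 cycling cells, summed histone CPM and summed replication CPM had a Spearman correlation of 0.64, positive in 7 of 7 series (0.31 to 0.83). Summed replication and mitosis CPM had one of -0.07, positive in 2 of 7 series (-0.69 to 0.94). Both are descriptions across cells whose values share a library and its total.

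**Figure D4:**
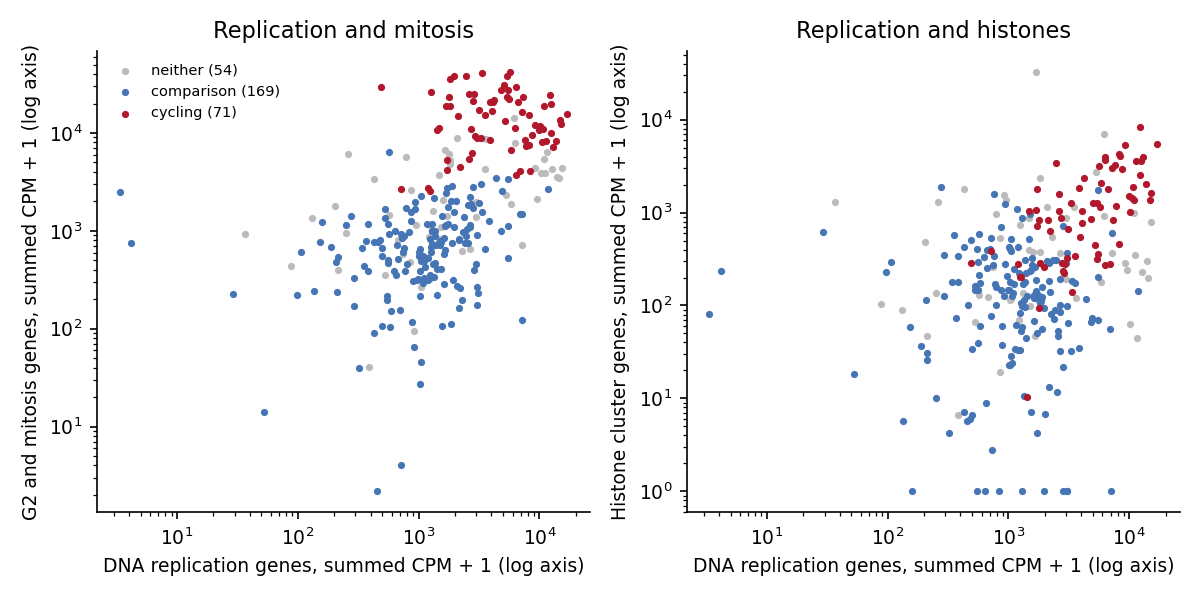
Each point is 1 cell: summed CPM + 1 of replication genes (log axis) against that of G2 and mitosis genes (left) and of histone cluster genes (right), for cycling, comparison and other cells. Cycling cells lie high in the left panel, with summed mitosis CPM from 2538 to 42281. Their replication sums, from 489.7 CPM, and histone sums, from 9.30 CPM, overlap those of the comparison cells. The histone and replication sums of the cycling cells rank together with a Spearman correlation of 0.64.

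Genes outside the cell cycle lists with the largest differences included further genes of chromosomes and the spindle. Shcbp1, a protein of the spindle midbody, ran from 241.1 to 697.9 CPM with a median of 321.8 in the cycling cells and from 0 to 6.23 CPM with a median of 0.892 in the comparison cells, a log2 difference of 4.65. The importin gene Kpna2 ran from 389.02 to 1094 CPM with a median of 702.8 against 3.65 to 115.5 CPM with a median of 16.4, a log2 difference of 4.16. The ranges of both were separate. The log2 differences of 7 others of the 10 highest were C330027C09Rik at 4.40, Spag5, a spindle protein, at 3.70 and Esco2, the cohesin acetyltransferase, at 3.69. Hist1h2ah had a log2 difference of 3.65, the kinesin gene Kif18a at 3.63, the DNA glycosylase gene Neil3 at 3.60 and Hist1h2ad at 3.55.

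Lower calls were fewer and less stable. Of the 107 genes called lower, 1 was at least 2-fold lower in every series (0.0113% of all tested genes) and 12 of the tested genes had lower series means without overlap (0.136%). The count was 4 with the difference of mean log2(CPM + 1) and 8 with 50 CPM added. Without series 1, 2.35% of the tested genes were called lower and 2.68% higher. No lower gene kept its call in all 21 alternatives, whereas 127 of the 214 higher genes did. All these higher counts include the defining genes, which chose the cells, so the calls of those genes are no sign of stability. By log2 difference the 10 lowest genes were Zfp442 at -3.10, Tcp11l2 at -2.64, Tmem230 at -2.58, Atg16l1, an autophagy gene, at -2.33, Stbd1 at -1.94, Impact at -1.91, Fbxw9 at -1.82, Gm5141 at -1.81, Snapin at -1.71 and Scx at -1.68. Their series means were low, as for Zfp442 in the comparison cells, from 32.1 to 123.03 CPM with a median of 89.1.

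For genes of the smooth muscle contractile apparatus, 1 call was made. Of 31 genes with a row, 30 were tested, 25 had a median below 0, none was called higher and 1, Tagln, was called lower. The list median was -0.30, or -0.15 relative to the median of all tested genes, of which 5516 of 8853 were below 0; with the difference of mean log2(CPM + 1) it was 0.11 where all genes stood at 0.40. Without series 1 the list median was -0.29 and 2 genes were called lower. The summed CPM of the list ran from 4724 to 12336 CPM with a median of 8476 in the cycling cells and from 7097 to 16019 CPM with a median of 11042 in the comparison cells, with overlap.

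Tagln, the actin-binding transgelin gene, ran from 53.3 to 1065 CPM with a median of 465.6 in the cycling cells and from 429.2 to 1337 CPM with a median of 1175 in the comparison cells and was lower in 7 of 7 series with a log2 difference of -1.26. The ranges overlapped, and the call was lost in 3 of 21 alternatives. As a share of cells at 100 CPM the difference was small, 67.6% of cycling cells (95% interval 55.5 to 78.2%) against 71.6% of comparison cells weighted to the same series.

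Acta2, the smooth muscle actin gene, ran from 0.448 to 1366 CPM with a median of 265.3 in the cycling cells and from 396.9 to 2975 CPM with a median of 427.9 in the comparison cells. It was lower in 6 of 7 series with a log2 difference of -0.95, with overlap, and was not called. Cells at 100 CPM of Acta2 were 52.1% of the cycling cells (95% interval 39.9 to 64.1%) and 54.5% of the comparison cells weighted to the same series. Many cycling cells thus held the gene. The myosin light chain gene Myl9 had a log2 difference of -1.35, lower in 6 of 7 series, and its partner Myl6 at -0.52, lower in 7 of 7.

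Other abundant genes of the list lay near the median of all genes or above it. The tropomyosin genes Tpm1 and Tpm4 had log2 differences of -0.32 and 0.30, the caldesmon gene Cald1 at 0.10 and the filamin gene Flna at -0.36. Myh11, the myosin heavy chain of mature smooth muscle, reached 100 CPM in 3 of 71 cycling and 8 of 169 comparison cells and had a log2 difference of -0.08, so it was rare in both.

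Extracellular matrix genes were close to the background by the log2 difference. All 58 listed genes in the table were tested and none was called, with 41 below 0 and a median of -0.21, or -0.06 relative to all genes. With the difference of mean log2(CPM + 1) the matrix median was -0.012 where all genes stood at 0.40, so it was then farther below the background. Postn, the periostin gene of cushion mesenchyme, ran from 1702 to 9067 CPM with a median of 3959.7 in the cycling cells and from 1640.3 to 9681 CPM with a median of 4071 in the comparison cells, a log2 difference of -0.04. The proteoglycan gene Vcan ran from 594.5 to 3126 CPM with a median of 2389 against 486.2 to 4643 CPM with a median of 2079, a log2 difference of 0.06. For both genes the ranges covered one another.

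The collagen genes Col1a2 and Col3a1 had log2 differences of -0.68 and -0.33, the elastin gene Eln at -0.63 and the proteoglycan genes Dcn and Lum at -0.11 and -0.23. Sparc, a collagen-binding matrix protein, was lower in 7 of 7 series with a log2 difference of -0.41. The matrix median without series 1 was -0.34, with 1 gene called lower.

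Regulators, ligands and receptors of the neural crest and outflow tract had a median of -0.30, or -0.15 relative to all genes; with the difference of mean log2(CPM + 1) it was 0.042 where all genes stood at 0.40. Without series 1 it was -0.38 and 2 genes were called lower. Of 51 in the table, 41 were tested, 30 were below 0, none was called higher and 1, Scx, was called lower. Abundant members were present in both kinds of cell. The T-box gene Tbx20 ran from 642.3 to 1936 CPM with a median of 852.9 in the cycling cells and from 528.8 to 2608 CPM with a median of 1024 in the comparison cells, a log2 difference of -0.13. Gata6, a zinc finger factor of the outflow tract, ran from 180.4 to 406.4 CPM with a median of 263.8 against 155.04 to 451.9 CPM with a median of 396.1, a log2 difference of -0.29.

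Scx, the scleraxis transcription factor gene of tendon and valve mesenchyme, was lower in 7 of 7 series. It ran from 0 to 92.9 CPM with a median of 22.2 in the cycling cells and from 47.7 to 239.9 CPM with a median of 99.8 in the comparison cells, with overlapping ranges and a log2 difference of -1.68. It reached 100 CPM in 14.1% of the cycling cells (95% interval 6.97 to 24.4%) and 32.1% of the comparison cells weighted to the same series, lower in 7 of 7 series. At equal reads the shares were 8.20% and 34.2%. The call held in 20 of 21 alternatives.

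Sox9, a regulator of cushion and cartilage precursors, ran from 152.6 to 471.97 CPM with a median of 225.2 in the cycling cells and from 198.5 to 644.4 CPM with a median of 391.4 in the comparison cells. It was lower in 7 of 7 series with a log2 difference of -0.44, under 2-fold and with overlap. Pdgfra and Tgfb2, a growth factor receptor and a ligand, had log2 differences of -0.33 and -0.44, the homeobox gene Meis2 at -0.70 and Igf2 at -0.41. The endothelin receptor gene Ednra had a log2 difference of -1.13, lower in 6 of 7 series, and the enkephalin precursor gene Penk at -1.23, lower in 5 of 7.

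**Figure D5:**
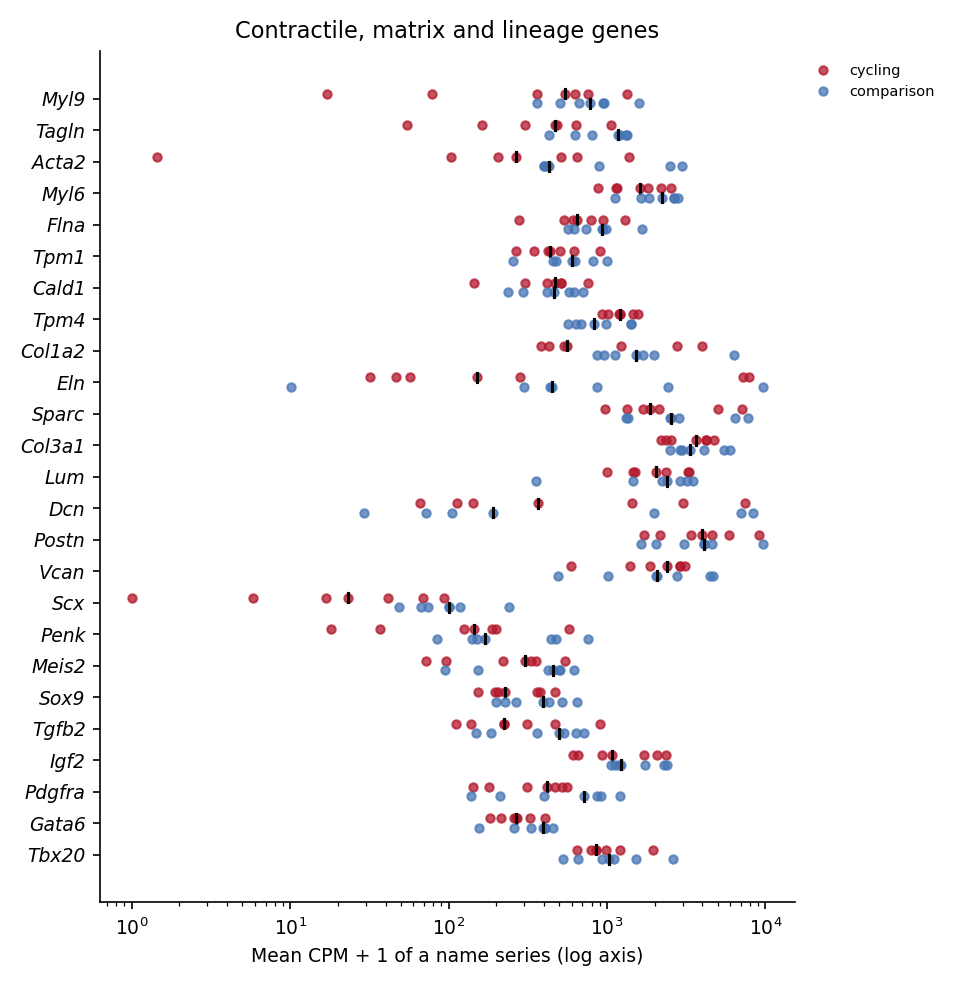
Mean CPM + 1 (log axis) of the 8 most abundant contractile, matrix and lineage genes each, and Scx, in 7 name series, for cycling cells (red) and comparison cells (blue), with black bars at the median series. The 2 colours overlap for every gene shown, with Scx, Tagln, Myl6, Sparc and Sox9 among those lower in the cycling cells in 7 of 7 series.

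Prrx1, Snai2 and Hmga2, regulators found in mesenchyme and embryonic cells, were instead present in a larger share of the cycling cells. This measure, chosen after the values were seen, counts cells at 100 CPM and asks for at least 20 percentage points between the kinds of cell and the same direction in at least 6 series. It picked 298 higher (3.37%) and 6 lower genes (0.0678%) of 8853, among them 3 of 41 lineage, 1 of 58 matrix and 0 of 30 contractile genes, all higher. With counts this small beside 3.37% of all tested genes, these are single genes and no trait of their lists. The lineage list as a whole did not share this direction. Its share of cells was larger in the cycling cells for 17 genes and smaller for 24, against 4693 and 4129 of all tested genes. Prrx1, a homeobox gene of mesenchyme, was at 100 CPM in 73.2% of the cycling cells (95% interval 61.4 to 83.1%) and 43.5% of the comparison cells weighted to the same series, higher in 7 of 7 series. The comparison shares of Snai2, Hmga2 and Has2 that follow were weighted in the same way, also at equal reads.

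Snai2, a repressor active in crest cells leaving the epithelium, was at 100 CPM in 57.7% (95% interval 45.4 to 69.4%) and 29.3%, higher in 6 of 7 series. Hmga2, a chromatin protein of embryonic cells, was at 45.1% (33.2 to 57.3%) and 24.8%, and Has2, the hyaluronan synthase gene, at 32.4% (21.8 to 44.5%) and 11.8%, each higher in 7 of 7 series. At equal reads the shares were 72.1% and 45.3% for Prrx1, 55.7% and 27.5% for Snai2, 49.2% and 29.0% for Hmga2, and 31.1% and 14.8% for Has2.

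The series means of these genes differed less. Prrx1 ran from 171.5 to 528.8 CPM with a median of 280.2 in the cycling cells and from 102.9 to 242.7 CPM with a median of 206.97 in the comparison cells, a log2 difference of 0.59, and Snai2 had a log2 difference of 1.15, Hmga2 at 0.57 and Has2 at -0.0029, none of them called. More genes were detected per cycling cell, and the part of that in these shares was not tested beyond the counts at equal reads. The part of embryonic age, which is given for no cell, was not tested.

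Immediate early and heat shock genes, which can respond to dissociation, had 16 of 16 genes tested, a median of -0.37, or -0.70 without series 1, and 1 call, Fos, which was lower in 7 of 7 series. Fos ran from 155.6 to 2710.1 CPM with a median of 237.9 in the cycling cells and from 228.6 to 2816 CPM with a median of 396.5 in the comparison cells, a log2 difference of -1.05, with overlap, and lost its call in 13 of 21 alternatives. The part of dissociation in the other lower values was not tested.

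Markers of other cell types were rare in the cycling cells. At least 2 markers of a type at 100 CPM were found for cardiomyocytes in 2 of 71 cycling and 5 of 169 comparison cells, for endothelium in 3 and 0, for epicardium in 4 and 4 and for glia in 4 and 3. No cell of either kind had 2 markers of neurons, melanocytes or blood at that level. Few of these markers had a row, 4 of 7 for neurons, 4 of 6 for melanocytes and 2 of 10 for blood. The absence of such cells therefore cannot be read from these counts.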

How the data were processed

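Single-cell RNA was measured in 294 neural crest cells, all in 1 group. The counts are the authors' deposited raw reads per gene, 15124 genes with no unnamed row; the submitters' processing notes name HISAT2 2.1.0, featureCounts, Seurat and mm10 without their roles, and the annotation is not given in the sources used here. The labels name no molecular identifiers, so reads are not independent molecules. The second deposited table holds a depth-corrected score, which the authors gave as whole numbers; how it was made is not given in the sources used here, and it served as an alternative scaling only. Library preparation did not mark strand, per the labels' kit names, so overlapping and antisense genes cannot be told apart.

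Counts were scaled to CPM by each cell's total. Differences, calls and intervals follow the rules given with the results, computed with Python 3.11.15, numpy 2.4.6, pandas 2.3.3 and scipy 1.17.1. Cells are not replicates, so no test was run. The script that makes the calls was tested on simulated data, where many genes made to differ missed the call, so a gene not called may still differ. No doublet caller was run, since the labels state that captured cells were photographed.

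Of 384 listed genes in 16 lists, 360 were rows of the table. Named are the 5 defining genes, genes of each list past 2-fold in every series (up to 12), the 8 most abundant contractile, matrix and lineage genes, the 10 highest (1 of them not reported here) and 10 lowest genes outside the cell cycle lists, and the D cyclins and Cip/Kip inhibitors. Others were named as examples after their values were seen, with the histone list and the share-of-cells measure. The cells, lists and rules were chosen with earlier results of these data known. Alternatives covered the cycling rule, comparison cells, scaling, depth, pseudocount, measure of level, filter and series.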

Additional observations from a re-analysis of the deposited data

How the results depend on the processing

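The share of cycling cells was 29.9% when 2 of the 5 genes sufficed. The mitosis median was 3.41 against every non-cycling cell, 6.21 with 1 CPM added and 2.09 with 50 CPM added, where the replication median was 0.87 and 0.0904% of the tested genes (8 genes) were called lower. With the difference of mean log2(CPM + 1), 8.0% of the tested genes were called higher and 0.0452% (4 genes) lower, and the medians were 4.69 for mitosis, 2.64 for replication, 0.11 for contractile, -0.012 for matrix and 0.042 for lineage genes. The median of all genes was then 0.40, so the last 3 lists stayed below it. With all cells in 1 layer 4.42% of genes were called higher and 4.08% lower. Leaving out each series in turn called 1.39 to 2.35% of genes lower, with fewer series required to share a sign, and matrix medians of -0.34 to -0.20; both the 2.35% and the -0.34 came without series 1. The cause of the other shifts was not tested. No median of the mitosis or replication genes changed sign in the 21 alternatives. Depth limits single cells at low levels: 30 cells were left out at 286313 reads. No paired analysis was possible because all cells form 1 group and no result comes from a test.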
